A study of Homo sapiens with 4 samples.

Results

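Transcripts of 9 genes of the HLA class I pathway were followed in T98G cells, a human glioblastoma line, with and without overexpressed LGP2. The genes were chosen by name from the count table of 20913 genes: HLA-B, HLA-C, HLA-E and HLA-F, which encode class I heavy chains, B2M, which encodes their light chain, TAP1, TAP2 and TAPBP of the peptide loading machinery, and NLRC5, a transcriptional activator of class I genes. All 9 had enough counts to be tested, among 17863 tested genes. The vector group (genotype label VECTOR) and the LGP2 overexpression group (genotype label LGP2 overexpressed) each had 2 libraries, numbered 2 and 3, of the same line. The column names of the overexpression libraries carry the word flag. The sources used here do not give the construct's promoter, whether the cells were a clone or a pool, or the time after its introduction. The labels name the cell type astroblastoma, and their growth text names 293T cells. They do not state whether the replicates were separate cultures, and p-values here reflect the spread among these 4 libraries alone, and that spread may be technical.

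Class I molecules display peptides from inside the cell to CD8 T cells. Peptides cut by the proteasome are pumped into the endoplasmic reticulum by the transporter that TAP1 and TAP2 form, and tapasin, the product of TAPBP, bridges this transporter to empty heavy chains bound to B2M. HLA-E and HLA-F are non-classical heavy chains, and HLA-E is a ligand of receptors on natural killer cells. The pathway is raised by interferon and NF-kB signalling through short promoter elements, and NLRC5 acts through the conserved upstream module that holds the X and Y boxes. LGP2 is the product of DHX58 and a relative of the RNA sensors RIG-I and MDA5, whose signalling can induce interferon.

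The upstream sequences of HLA-B, HLA-C and HLA-F are shown because these heavy chain genes are close relatives that were all highest in the same vector library. Those of B2M, TAP1 and TAPBP are shown because their groups did not overlap in the data below. RefSeq windows (GRCh38.p14) were found for 7 of the 9 genes, 8 windows in all, since TAP1 has 2 starts. HLA-E and NLRC5 had no window and were not searched. The first TAP1 start is shown, and the window of the other holds none of the motifs searched. Each run holds the 250 bases before the RefSeq start, 5′ to 3′ on the gene's strand. Capitals mark every match, on either strand, to AANNGAAA (an interferon regulatory factor element), to a pair of GAAA separated by any 2 bases (the core of an interferon-stimulated response element, which always holds an AANNGAAA), to the NF-kB consensus, to CCAAT (the Y box and other CCAAT boxes) and to TGACG (the core of the X2 box).
HLA-B (chr6:31357180-31357429, minus strand): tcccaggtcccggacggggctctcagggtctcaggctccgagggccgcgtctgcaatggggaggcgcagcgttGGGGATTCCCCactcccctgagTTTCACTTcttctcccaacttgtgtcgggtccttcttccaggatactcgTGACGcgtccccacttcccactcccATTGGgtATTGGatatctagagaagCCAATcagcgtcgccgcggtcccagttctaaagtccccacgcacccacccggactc
HLA-C (chr6:31272093-31272342, minus strand): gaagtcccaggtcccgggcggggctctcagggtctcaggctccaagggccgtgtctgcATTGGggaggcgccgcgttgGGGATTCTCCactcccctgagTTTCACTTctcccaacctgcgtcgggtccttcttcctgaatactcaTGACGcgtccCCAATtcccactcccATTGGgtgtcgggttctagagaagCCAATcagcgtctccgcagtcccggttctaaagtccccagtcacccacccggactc
HLA-F (chr6:29723184-29723433, plus strand): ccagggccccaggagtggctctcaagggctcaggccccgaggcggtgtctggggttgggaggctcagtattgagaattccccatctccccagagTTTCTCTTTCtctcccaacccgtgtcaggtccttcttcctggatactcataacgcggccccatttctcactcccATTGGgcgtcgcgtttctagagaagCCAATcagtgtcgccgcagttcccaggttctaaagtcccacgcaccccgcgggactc
B2M (chr15:44711267-44711516, plus strand): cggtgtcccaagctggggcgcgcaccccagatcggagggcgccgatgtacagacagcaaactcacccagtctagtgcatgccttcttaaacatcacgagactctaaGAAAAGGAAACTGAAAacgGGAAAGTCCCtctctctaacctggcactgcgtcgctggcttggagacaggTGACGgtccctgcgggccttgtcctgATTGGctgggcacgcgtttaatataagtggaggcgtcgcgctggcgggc
TAP1 (chr6:32853705-32853954, minus strand): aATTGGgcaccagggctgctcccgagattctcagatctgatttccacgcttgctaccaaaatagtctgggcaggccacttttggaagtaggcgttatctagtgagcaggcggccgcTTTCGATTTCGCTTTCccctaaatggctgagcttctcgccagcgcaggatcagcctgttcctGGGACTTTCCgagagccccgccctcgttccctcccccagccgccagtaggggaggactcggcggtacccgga
TAPBP (chr6:33314079-33314328, minus strand): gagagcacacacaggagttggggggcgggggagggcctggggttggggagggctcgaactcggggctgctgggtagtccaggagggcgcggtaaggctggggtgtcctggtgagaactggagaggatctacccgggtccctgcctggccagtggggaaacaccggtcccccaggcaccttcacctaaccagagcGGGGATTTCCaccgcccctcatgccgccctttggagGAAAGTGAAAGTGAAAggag

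HLA-B and HLA-C were 89.0% identical over these aligned windows, HLA-B and HLA-F 80.4%, and HLA-C and HLA-F 78.2%, while B2M shared 42.7% to 46.6% with the 3 heavy chain genes. AANNGAAA was present in 7 of the 8 windows, at 1 start of each of the 7 genes, against 20.3% of the 35116 windows of the same length in the RefSeq table. In HLA-B it lay 155 to 148 bases before the start, and in HLA-C 151 to 144 bases before it. The GAAA pair was found in 5 of 8 windows (HLA-F, B2M, TAP1, TAP2 and TAPBP), against 3.02% of all windows. The NF-kB consensus was found in 5 of 8 (HLA-B, HLA-C, B2M, TAP1 and TAPBP), against 9.96%. CCAAT was found in 5 of 8 (HLA-B, HLA-C, HLA-F, B2M and TAP1), against 32.0%, and TGACG in 4 of 8 (HLA-B, HLA-C, B2M and TAP2), against 21.2%. These matches are letters in the reference, and no binding was measured here.

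The overexpressed gene itself, DHX58, was counted 377 and 571 times in vector replicates 2 and 3, against 30509 and 34045 times in LGP2 overexpression replicates 2 and 3. That is a log2 fold change of 6.09 (SE 0.24), for which edgeR gave an adjusted p = 1.9e-06. Library totals ran from 56033379 to 63932198 counts, and the 9 class I genes took 0.576% and 0.551% of them in vector and 0.486% and 0.512% with LGP2. B2M made up most of this summed share, at 198175 to 270279 counts per library. HLA-C came next, at 33313 to 46729. Such a sum mainly follows B2M and does not describe all 9 genes alike. Of the 7 astroglial and glioma line markers analysed here, VIM and CD44 were abundant, at 2842 to 4027 CPM (counts divided by the TMM-scaled library total and brought to a common scale) and 1652 to 2198 CPM. GFAP, another of these markers, was at only 0.346 to 0.693 CPM and NES at 0 to 0.568 CPM. Of 11 leukocyte markers 5 were analysed, and their summed level was 94.2 to 116 CPM in vector and 81.3 to 90.6 CPM with LGP2. Nearly all of that sum was CD68, a lysosomal protein, at 92.9 to 114 CPM in vector and 80.1 to 89.7 CPM with LGP2. CD14, a monocyte receptor, had 25 and 16 counts in the vector libraries but 0 in either overexpression library. Of 5 endothelial markers 3 were analysed, summing to 3.42 and 5.61 CPM in the vector libraries, against 6.26 and 8.94 CPM under LGP2. The part of these markers in the class I values was not tested. In such bulk libraries, fewer cells with a transcript and less of it per cell cannot be told apart.

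No class I gene passed the test between the groups. Of the 9 genes 0 were called (edgeR, adjusted p under 0.05), against 0.0168% of all genes tested, and the smallest adjusted p among them was 0.998. At an unadjusted p under 0.05 there were 0 of 9, against 4.46% of all genes, and DESeq2 and limma-voom also called 0. Of the 9 genes 7 lay below 0 and 2 above. Their median was -0.16 on the log2 scale, against -0.0080 over all genes tested, of which 51.3% lay below 0. For every one of the 9 a change of 2-fold, up or down, lay outside the 95% interval, which held for 61.1% of all genes. Over the 9 genes these intervals reached down to 0.626-fold (B2M) and up to 1.35-fold (NLRC5), and changes inside them are not excluded. The median level of the 9 genes in vector was 86.6 CPM, against 11.3 CPM over all genes tested. How far level sets the width of the intervals was not tested.

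**Figure D1:**
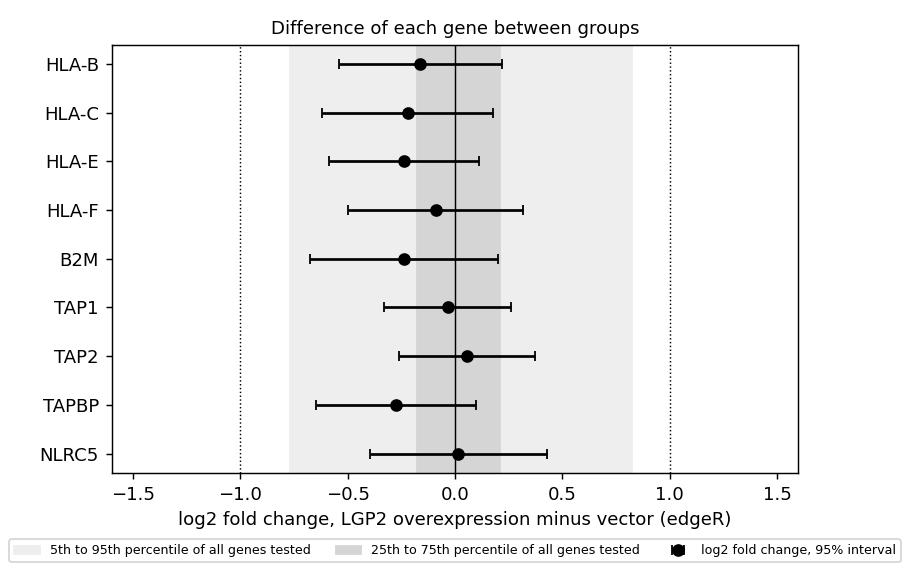
Log2 fold change of each class I gene between LGP2 overexpression and vector (points) with its 95% interval from edgeR (bars), on a log2 axis with dotted lines at a 2-fold change. Bands show the middle of all 17863 tested genes. All intervals cross 0, and none reaches a dotted line.

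The classical heavy chains HLA-B and HLA-C were highest in 1 vector library. HLA-C was at 769 and 584 CPM in vector replicates 2 and 3 and at 592 and 568 CPM in LGP2 overexpression replicates 2 and 3. Vector replicate 2 stood above the other 3 libraries, and vector replicate 3 lay between the 2 overexpression libraries, so the groups overlapped. Its log2 fold change was -0.22 (SE 0.18, 95% interval -0.62 to 0.18). HLA-B was at 344 and 260 CPM in the vector libraries, against 279 and 261 CPM under LGP2, again with replicate 2 of vector on top and the other libraries close together. Its log2 fold change was -0.16 (SE 0.17, 95% interval -0.54 to 0.22). Between the vector libraries alone the log2 ratio of replicate 2 to replicate 3 was 0.41 for HLA-B and 0.40 for HLA-C, larger than either difference between the groups. Without vector replicate 2, HLA-B turned to 0.06 and HLA-C shrank to -0.0085. Without vector replicate 3 the values were -0.35 and -0.41, with unadjusted p = 0.0263 and 0.0120 but adjusted p = 0.272 and 0.184 by edgeR.

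The non-classical heavy chains split in level but not in call. HLA-E was at 258 and 213 CPM in the vector libraries, against 213 and 187 CPM under LGP2, a log2 fold change of -0.24 (SE 0.16, 95% interval -0.59 to 0.11). Vector replicate 3 and LGP2 overexpression replicate 2 were level with each other, so the groups touched. HLA-F was far lower, at 27.3 and 23.9 CPM in the vector libraries, against 24.9 and 23.3 CPM under LGP2, a log2 fold change of -0.09 (SE 0.18). Its groups overlapped too. Without vector replicate 2, HLA-E was at -0.09 and HLA-F at 0.0092, while dropping vector replicate 3 instead gave -0.37 and -0.19.

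**Figure D2:**
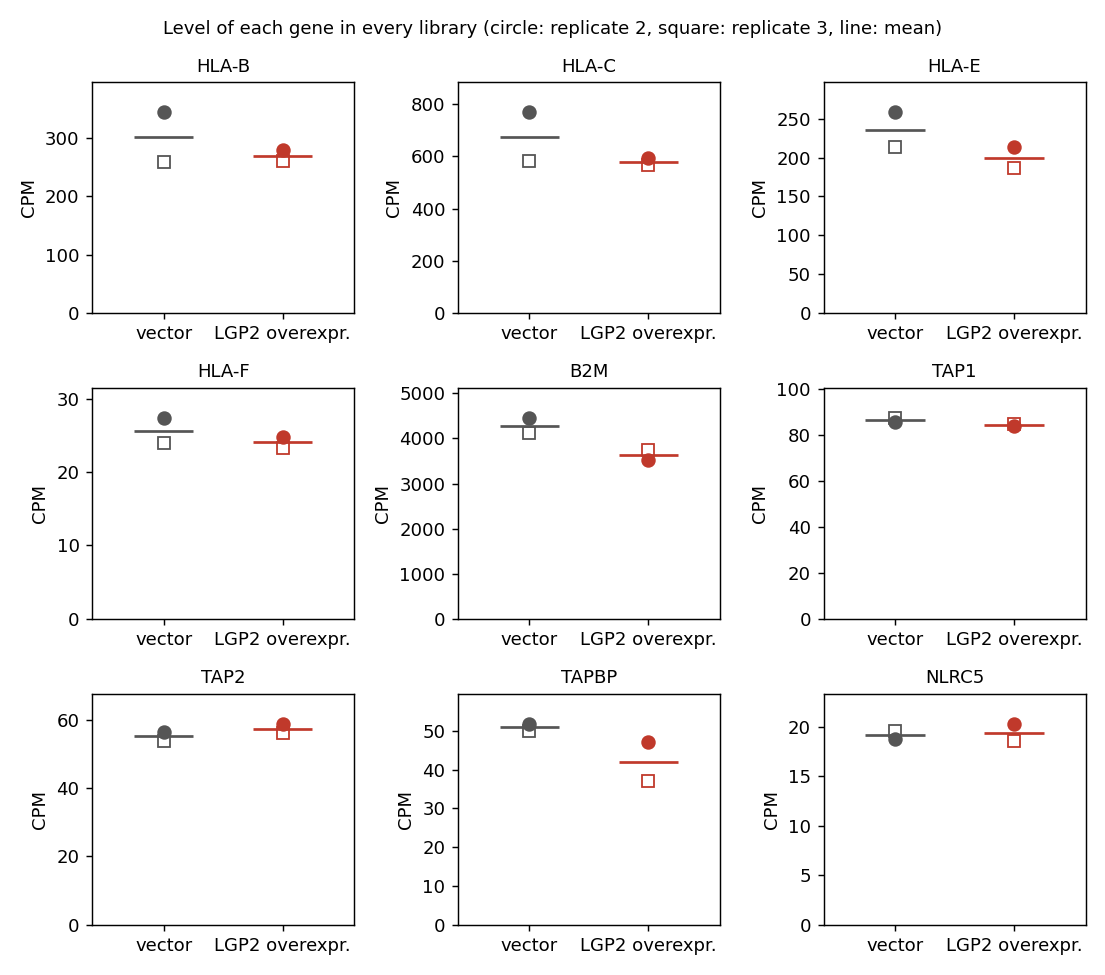
Level in CPM of each class I gene in every library, with a linear axis from 0 in each panel. Circles are replicate 2, squares replicate 3 and lines group means. In the HLA-B, HLA-C and HLA-E panels vector replicate 2 lies apart from the other libraries, while TAP1, TAP2 and NLRC5 lie close together in all of them.

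B2M, the light chain common to all class I molecules, was lower in both overexpression libraries than in either vector library, without passing the test. It was at 4447 and 4121 CPM in the vector libraries, against 3523 and 3746 CPM under LGP2, so the groups did not overlap. The difference was -0.24 on the log2 scale (SE 0.20), its 95% interval ran from -0.68 to 0.20, and the adjusted p was 0.998. It ran from -0.29 to -0.18 when any 1 library was left out, so its sign did not hang on vector replicate 2. It was the most abundant of the 9 genes in every library.

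TAPBP had the lowest log2 fold change of the 9 genes, and 1 library made most of it. It was at 51.7 and 50.1 CPM in the vector libraries, against 47.1 and 37.1 CPM under LGP2. The vector libraries lay close together, LGP2 overexpression replicate 2 just below them and replicate 3 well below. Its log2 fold change came to -0.28 (SE 0.17), within a 95% interval of -0.65 to 0.10. Without LGP2 overexpression replicate 3 it was -0.11, and without LGP2 overexpression replicate 2 it was -0.46, in fits where the overexpression group holds 1 library.

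The transporter genes were the steadiest. TAP1 was at 85.8 and 87.3 CPM in the vector libraries, against 84.2 and 85.0 CPM under LGP2. Its groups did not overlap, by a small margin, and its log2 fold change of -0.03 (SE 0.13) turned to 0.012 when counts were scaled to library totals alone. TAP2 was at 56.5 and 53.8 CPM in the vector libraries, against 58.7 and 56.0 CPM under LGP2, with overlapping groups and a log2 fold change of 0.06 (SE 0.14, 95% interval -0.26 to 0.37). NLRC5 was at 18.8 and 19.6 CPM in the vector libraries, against 20.3 and 18.6 CPM under LGP2. Both overexpression libraries lay outside the vector pair, on opposite sides of it. Its log2 fold change was 0.02 (SE 0.19, 95% interval -0.40 to 0.43), and its sign turned when either vector replicate 2 (-0.015) or LGP2 overexpression replicate 2 (-0.05) was left out.

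Groups that did not overlap were found for 3 of the 9 genes, B2M, TAP1 and TAPBP, all with LGP2 lower. Over all genes tested 16.5% had groups apart with LGP2 lower and 16.7% with LGP2 higher, and 0 of the 9 class I genes had LGP2 higher. Among the 4 libraries, vector replicate 2 held the highest value for 6 of the 9 genes and LGP2 overexpression replicate 3 the lowest for 5. The median deviation of the 9 genes from their mean over the libraries was 0.17 (log2) in vector replicate 2, -0.02 in vector replicate 3, -0.02 in LGP2 overexpression replicate 2 and -0.09 in LGP2 overexpression replicate 3. Vector replicate 2 also had the lowest TMM factor, 0.951 against 1.00 to 1.03 in the other libraries. The median log2 fold change of the 9 genes was -0.11 when counts were scaled to library totals alone, -0.159 with DESeq2 size factors and -0.163 with upper-quartile scaling.

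**Figure D3:**
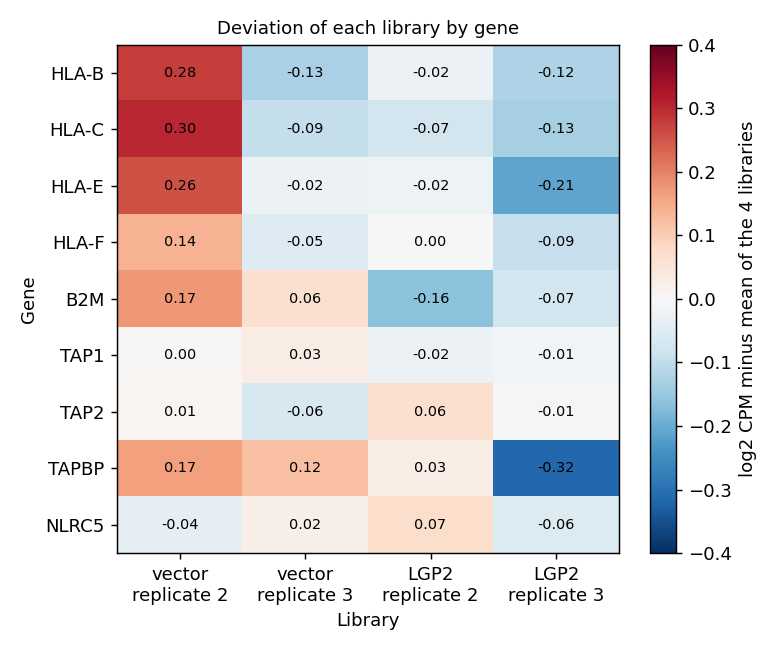
Deviation of log2 CPM from the mean of the 4 libraries for each class I gene (rows) and library (columns), with red above and blue below that mean. The heavy chain rows are red in vector replicate 2, from 0.14 for HLA-F to 0.30 for HLA-C, and the TAP1, TAP2 and NLRC5 rows are near 0 throughout.

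Set against transcript length, B2M stood highest, followed by HLA-C, HLA-B and HLA-E, while HLA-F lay below the 3 loading genes. In CPM per kilobase of the principal GENCODE transcript, B2M ran from 2066 to 2608 over the 4 libraries, HLA-C from 370 to 501, HLA-B from 168 to 223 and HLA-E from 71.8 to 99.3. TAP1 followed at 28.4 to 29.5, TAPBP at 19.6 to 27.4, TAP2 at 21.5 to 23.5 and HLA-F at 14.2 to 16.7, with NLRC5 last at 2.72 to 2.97. Only TAPBP and TAP2 had overlapping ranges among neighbours in this order. The level of B2M per kilobase was 3.11 and 3.75 times the sum of the 4 heavy chains in vector and 3.11 and 3.52 times with LGP2, with overlapping groups. The ratio of TAP1 to TAP2 per kilobase was 1.283 and 1.370 in vector and 1.210 and 1.281 with LGP2. These groups did not overlap, by a small margin, and 16.5% of single genes had groups apart with LGP2 lower. The TAP2 counts in this ratio are uncertain, as given below.

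Shares of the 4 heavy chain genes in their summed counts differed little in size between the groups. HLA-C took 55.0% and 54.0% in vector and 53.4% and 54.7% with LGP2, and HLA-E 18.5% and 19.7% in vector and 19.2% and 17.97% with LGP2. HLA-B took 24.6% and 24.0% in vector and 25.2% and 25.1% with LGP2, a difference of 0.82 percentage points between groups that did not overlap. HLA-F took 1.95% and 2.21% in vector and 2.24% and 2.24% with LGP2, again without overlap, so groups were apart for 2 of the 4 shares. These shares do not depend on how libraries are scaled, but no test was made of them, and 16.5% and 16.7% of single genes had groups apart in each direction.

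The counts of the heavy chain genes, which are close paralogs, and of TAP2 are uncertain, since reads could be shared with other genes. In GENCODE 29, 6.79% of the 50-base stretches of the HLA-C transcript, 5.13% for HLA-E, 2.54% for HLA-B and 1.70% for HLA-F occur in a transcript of another gene, and 0 do for B2M, TAPBP and NLRC5. The share was 1.07% for TAP1 and 80.2% for TAP2, whose exons overlap the read-through gene AL669918.1 on the same strand. HLA-B, at chromosome 6, 31269491 to 31357188 on the minus strand in GRCh38, is annotated with exons that overlap HLA-C at 31268749 to 31272130. HLA-E lies at 30489467 to 30494205 and HLA-F at 29722775 to 29738528, both on the plus strand, and HLA-F exons overlap HLA-F-AS1 on the other strand. TAP2 (32821833 to 32838780), TAP1 (32845209 to 32853978) and TAPBP (33299694 to 33314387) lie on the minus strand of the same chromosome, and TAP1 exons overlap PSMB8-AS1 on the other strand. B2M lies on chromosome 15 at 44711487 to 44718877 and NLRC5 on chromosome 16 at 56989485 to 57083531, both on the plus strand, with no overlap of exons. The HLA alleles of T98G may differ from the reference, and the effect of that on the counts was not tested.

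None of the partner genes of the pathway passed over all genes tested either. The lists of partners were chosen with earlier results of these data known. Of 13 peptide loading and quality control partners in the endoplasmic reticulum, 0 were called, 6 lay above 0 and 7 below, and the median log2 fold change was -0.0020. The chaperones that hold new heavy chains were abundant: calreticulin (CALR) was at 778 and 698 CPM in the vector libraries, against 806 and 669 CPM under LGP2, and the oxidoreductase PDIA3 at 629 and 593 CPM against 672 and 610 CPM. GANAB, the catalytic subunit of glucosidase II, was at 611 and 402 CPM in the vector libraries, against 529 and 472 CPM under LGP2. The lectin chaperone calnexin (CANX) was at 670 and 650 CPM in the vector libraries, against 932 and 815 CPM under LGP2, so both overexpression libraries lay above both vector libraries. Its log2 fold change was 0.40 (SE 0.17, adjusted p = 0.998). PRKCSH, the other glucosidase II subunit, was at 185 and 126 CPM against 120 and 115 CPM, a log2 fold change of -0.40 (SE 0.18).

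Further partners, named after their values were seen, had an unadjusted p under 0.05 together with CANX, all 4 with LGP2 higher. That is 4 of the 13 partners in this list, while 3% of all genes tested had an unadjusted p under 0.05 with LGP2 higher. The count hangs on that threshold: by edgeR the unadjusted p was 0.0490 for UGGT1 and 0.05001 for PRKCSH, which was lower with LGP2. ERAP1 and ERAP2, which trim peptides for class I, differed by a log2 fold change of 0.44 (SE 0.20) for the first and 0.41 (SE 0.18) for the second, and UGGT1, which re-glucosylates misfolded glycoproteins, by 0.36 (SE 0.16). ERAP2 was at 44.6 and 59.5 CPM in the vector libraries, against 62.8 and 75.3 CPM under LGP2, and ERAP1 at 13.5 and 16.2 CPM against 19.1 and 21.3 CPM. Neither pair of groups overlapped, as for 16.7% of all genes with LGP2 higher. Without vector replicate 2 the log2 fold changes shrank to 0.32 for ERAP1, 0.22 for ERAP2 and 0.17 for UGGT1, while CANX stayed at 0.43. Leaving out the same library moved PRKCSH from -0.40 to -0.10 and the regulator SUZ12 from 0.63 to 0.37. Without vector replicate 3, 5 genes of the partner lists passed, with adjusted p from 0.0056 to 0.033: LNPEP, a further peptidase also named after its values were seen, ERAP2, UGGT1 and the regulator SUZ12 as higher and PRKCSH as lower. That fit called 2.31% of the 18677 genes it tested, 291 higher and 141 lower. In it the vector group holds only replicate 2 and its spread was taken from the other group.

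**Figure D4:**
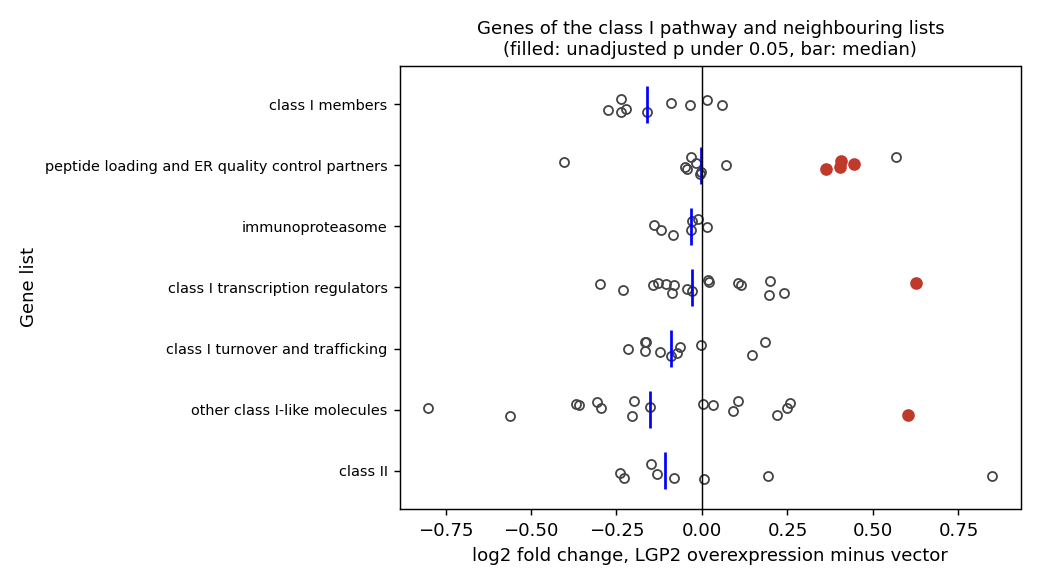
Log2 fold change (LGP2 overexpression minus vector) of every tested gene of the class I list and the 6 partner lists, with the list median as a bar. Filled points have an unadjusted p under 0.05 and number 4 among the loading partners and 1 each among the regulators and the class I-like molecules, all of them higher with LGP2.

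The immunoproteasome, the interferon-inducible proteasome form that cuts class I peptides, lay close to 0. Of its 7 genes 0 were called, 1 lay above 0 and 6 below, with a median of -0.03. The regulator subunits PSME3, PSME2 and PSME1 had log2 fold changes of -0.03, 0.02 and -0.14, and the assembly factor POMP -0.08. Without vector replicate 2, PSME3 was at 0.11 and POMP at 0.04.

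Of 17 regulators of class I transcription 0 were called, 8 lay above 0 and 9 below, with a median of -0.03. The NF-kB subunit RELA was at -0.30 (SE 0.17) and IRF1, an interferon-induced activator, at -0.10 (SE 0.15). EZH2, the catalytic subunit of the Polycomb complex that can silence class I genes, was at 0.02 (SE 0.15), and its partner SUZ12 at 0.63 (SE 0.23, adjusted p = 0.998). SUZ12 was at 12.2 and 18.05 CPM in the vector libraries, against 21.7 and 24.9 CPM under LGP2. EED, a further subunit of that complex named after its values were seen, was at -0.04 (SE 0.18).

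Genes of class I turnover, class I-like molecules and class II also gave 0 calls each. Of 11 turnover and trafficking genes 2 lay above 0 and 9 below, with a median of -0.09. Among them RNF145 was at -0.12, TMEM127 and WWP2, which take part in lysosomal removal of class I, at -0.09 and -0.16, TMEM129 at -0.22 and UBE2J1 at 0.15. Of 17 tested class I-like genes 8 lay above 0 and 9 below, with a median of -0.15. HLA-K, a pseudogene, was at 0.60 (SE 0.26), from 4.15 and 4.46 CPM in vector to 7.08 and 5.99 CPM with LGP2. The pseudogene HLA-J was at -0.80 (SE 0.45), with 2.22 CPM in LGP2 overexpression replicate 2 and 7.70 to 9.25 CPM in the other libraries. Without that library HLA-J was at -0.17. The pseudogene HLA-H was at 0.09, PROCR, an endothelial protein C receptor with a class I fold, at 0.0035, FCGRT, the neonatal Fc receptor, at -0.20 and HFE, an iron regulator, at 0.25. Of 8 tested class II genes 3 lay above 0 and 5 below, with a median of -0.11. Their activator CIITA was at 10.6 and 16.7 CPM in the vector libraries, against 13.4 and 13.9 CPM under LGP2, and HLA-DPA1 at 14.9 and 13.4 against 18.3 and 14.1 CPM. The log2 fold changes of HLA-DMA, HLA-DRA and HLA-DRB1 were -0.08, -0.23 and 0.85 (SE 0.60), the last from 0.477 and 0.708 CPM in vector to 1.28 and 0.860 CPM with LGP2.

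**Figure D5:**
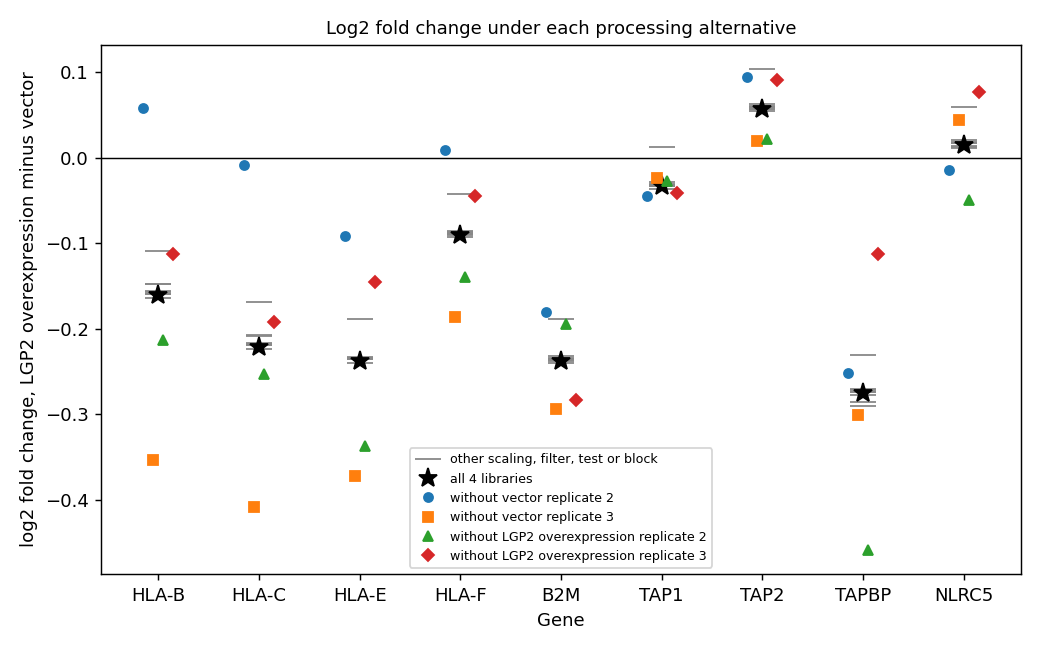
Log2 fold change of each class I gene with all 4 libraries (stars), without 1 library (coloured points) and under other scalings, filters, tests or the replicate block (grey dashes). Leaving out vector replicate 2 or 3 moved HLA-B from 0.06 to -0.35 and HLA-C from -0.0085 to -0.41, more than any other choice moved these genes.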

How the data were processed

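RNA was isolated with TRIzol and made into SMARTER mRNA-Seq libraries, per the labels' protocols. The authors deposited raw counts per gene symbol, 1 column per library. The submitters' processing notes name a mouse build, mm10, but the deposited symbols are human. The sources used here do not give the aligner, counter, annotation or strand setting. All 4 libraries, of 56033379 to 63932198 counts, were used, and other replicates were not analysed here.

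Counts were tested with edgeR 4.0.16 (R 4.3.3), by its two-sided quasi-likelihood test after TMM scaling and the filterByExpr filter on groups, with no covariate and Benjamini-Hochberg adjustment over all 17863 genes tested. Genes with an adjusted p under 0.05 were called. CPM use TMM-scaled totals. The test draws each gene's spread toward that of all genes, with 8.33 prior degrees of freedom. SEs come from the F statistic and 95% intervals from its degrees of freedom. They cover only this model's error. The fit was tested on simulated counts.

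The members and lists were chosen with earlier results of these data known. From each partner list the text names called genes, of which there were none, the 4 with the highest mean CPM and the 1 with the smallest unadjusted p in each direction. A gene named by this rule is not reported here. Transcript lengths, exons and 50-base stretches come from GENCODE 29 (principal transcripts, 9 of 9 matched), promoters from RefSeq (7 of 9), aligned with Biopython 1.88. Alternatives were the replicate block, leaving out each library, DESeq2 size factors, upper-quartile or library-total scaling, no filter, at least 5 CPM in 2 libraries, DESeq2 1.42.0, limma-voom (limma 3.58.1), an adjusted p under 0.01, and heavy chain shares per kilobase.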

Additional observations from a re-analysis of the deposited data

How the results depend on the processing

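No class I gene was called under any of these alternatives. The median log2 fold change of the 9 genes ran from -0.29 to -0.015 when 1 library was left out. Signs of single members turned without 1 library for HLA-B (range -0.35 to 0.058), HLA-F (-0.19 to 0.0092) and NLRC5 (-0.050 to 0.076), and for TAP1 with library totals (0.012). Fits without 1 library have a single library in 1 group and do not measure its spread.

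Over all genes, 3 were called higher and 0 lower. Leaving out 1 library gave 1 to 291 higher and 1 to 141 lower, and 0 to 5 genes of the partner lists. The replicate block gave 5 higher and 3 lower, no filter 1 higher and 0 lower, at least 5 CPM in 2 libraries 4 higher and 2 lower, DESeq2 13 higher and 9 lower, and limma-voom 4 higher and 2 lower. Same-numbered libraries deviated from their group means with a correlation of 0.03 across genes. With 2 libraries a group, this value cannot show whether same-numbered libraries were prepared together, and the labels do not say. Under the replicate block 0 class I genes were called and their median was -0.15.

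Partner genes whose sign turned without 1 library had these ranges of log2 fold change: GANAB -0.29 to 0.32, CALR -0.14 to 0.13, PSME3 -0.16 to 0.11, POMP -0.20 to 0.038, EZH2 -0.054 to 0.096, CIITA -0.29 to 0.37, HLA-DMA -0.30 to 0.11, PSME2 -0.026 to 0.056, TMEM127 -0.20 to 0.011, HLA-H -0.029 to 0.22, PROCR -0.12 to 0.12, HLA-DRA -0.52 to 0.13, PDIA3 -0.0036 to 0.14, HLA-DPA1 -0.012 to 0.37, IRF1 -0.22 to 0.0023. Signs also turned under the replicate block for GANAB (0.011), with library totals for CALR (0.045) and GANAB (0.037) and PSME3 (0.022), with no filter for CALR (0.0027), with at least 5 CPM in 2 libraries for CALR (0.0015), under limma-voom for GANAB (0.012) and PROCR (-0.0023). The cause of these turns was not tested.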
